A study of Mus musculus with 4 samples.

Results

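The sterol synthesis, SREBP and cholesterol transport genes are 32 genes chosen by their published roles and taken from a written list of names. They comprise the enzymes from acetyl-CoA to cholesterol, the regulators of that pathway, carriers and receptors that move cholesterol, and the enzyme of the geranylgeranyl branch. Of these, 29 were measured, among 18193 genes with a probe set of their own on the array, and Acat2, Nr1h2 and Soat1 were not analysed here. The samples were C2C12 cells, a mouse myoblast line, kept in growth medium with 20% fetal bovine serum and selected with puromycin after lentiviral transduction. In 2 cultures the pLKO.1 vector carried a control shRNA, which one label field calls a luciferase hairpin and another a scramble. In the other 2 it carried an shRNA against Sfmbt1, which encodes a Polycomb-related chromatin protein. The stably transduced cells of each group were grown as 2 separate cultures, each hybridised to 1 array, so that every group had n = 2. The labels name 1 hairpin for Sfmbt1 and do not give the number of transductions, so p-values measure the spread between these cultures. The comparison asks what loss of Sfmbt1 does to transcript levels in myoblasts held in growth medium.

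Cholesterol is built from acetyl-CoA through mevalonate, isoprenoid diphosphates, squalene and lanosterol. The transcription factor SREBP-2, encoded by Srebf2, raises most of these enzymes when membrane sterol is low. SCAP carries the SREBP proteins to the Golgi for cleavage, while INSIG proteins hold them in the endoplasmic reticulum when sterol is plentiful. Oxysterols act in the opposite direction through the LXR receptors, whose targets include the exporter genes Abca1 and Abcg1 and the receptor-degrading ligase gene Mylip. Muscle cells use sterol for their plasma membranes and mevalonate products for prenylation and dolichol.

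No gene of the 29 passed the test of knockdown against control. With limma and Benjamini-Hochberg adjustment over all 11949 genes tested, 0 of the 29 were called higher and 0 lower at an adjusted p under 0.05. Across all tested genes, 3.93% were called, 1.81% higher and 2.12% lower. Higher calls were thus 46.1% of all calls, and 61.8% once each array was centred on its median signal. At an unadjusted p under 0.05, 5 of the 29 genes passed (17.2%), against 1914 of all 11949 tested genes (16.02%). Those 5 were Mylip, Sc5d, Insig2, Mvd and Fdps, all lower in the knockdown. Signals of 23 genes were lower in the knockdown on average and those of 6 were higher, with a median log2 difference of -0.14 against 0.02 for all tested genes. In 16 of 29 genes (55.2%) the control and knockdown arrays did not overlap, beside 45.1% of all tested genes, and in 13 of those 16 the knockdown arrays were the lower. Over all tested genes the knockdown arrays were wholly lower in 21.6%, or 2579 of 5388 genes without overlap, and 52.5% of all tested genes had a positive difference. Taken for the brightest probe set of each gene, the 95% intervals of all 29 genes lay between -0.88 and 0.87. A change of 1 log2 unit lay outside each of these intervals, which do not cover the other probe sets of the genes.

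The Sfmbt1 transcript itself had lower mean signals in the knockdown by each of its 5 probe sets. In the 4 that were not wholly in the background range, the knockdown mean lay at 17.4% to 69.2% of the control mean. Adjusted p was 0.0416 and 0.0107 in a pair of these and 0.295 and 0.313 in the others (limma). Between 56.2% and 67.6% of probe sets were above background on each array, and knockdown replicate 1 was the lowest in that share. That array also had the highest background limit, at a signal of 69.3. All 29 sterol pathway genes were above background on all 4 arrays. Signals of 8 myoblast markers summed to between 20473 and 22955.6 on every array, with 0 called. Their median log2 difference was -0.20, with 5 lower and 3 higher in the knockdown. Myod1, at -0.31, was the 1 with an unadjusted p under 0.05 (limma). Markers of differentiated muscle, by contrast, were called higher in 12 of 13 cases, and their summed signal was 2607.7 and 2355.7 in the controls against 11283.5 and 11686.4 in the knockdown. The part of that marker shift in the sterol gene values was not tested, and in bulk RNA fewer cells of a type and less RNA per cell cannot be told apart.

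**Figure D1:**
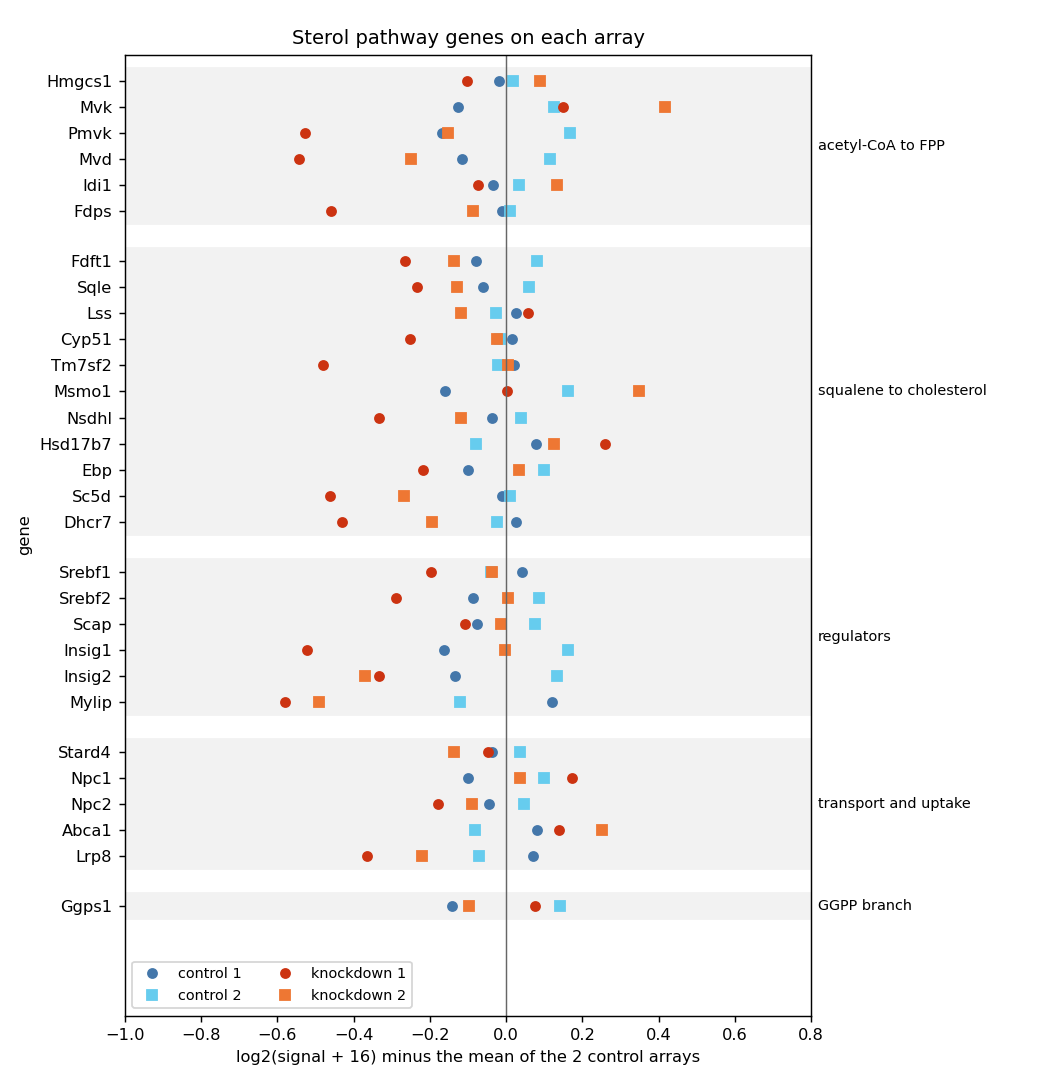
Signal of each sterol pathway gene on each array, as log2(signal + 16) minus the mean of the 2 control arrays, with 1 row per gene and genes grouped by role. Points for knockdown 1 lie left of those for knockdown 2 in 23 of 29 genes. Over all tested genes the median deviation was -0.04 on knockdown 1 and 0.08 on knockdown 2.

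The promoters of 3 genes are shown. They include Srebf2, the regulator with discordant probe sets described further on, and Mylip, the gene of the smallest p-value. Hmgcs1, the first of the measured enzymes in pathway order, is also shown. Each run is the 250 bases before a transcription start in RefSeq's mouse table of build GRCm38.p6, written 5′ to 3′ on the gene's strand. Srebf2 lies on the plus strand at chr15:82147019-82147268, Mylip on the plus strand at chr13:45389492-45389741 and Hmgcs1 on the plus strand at chr13:119690101-119690350. Capitals mark the matches of the motifs described next, on either strand.
Srebf2: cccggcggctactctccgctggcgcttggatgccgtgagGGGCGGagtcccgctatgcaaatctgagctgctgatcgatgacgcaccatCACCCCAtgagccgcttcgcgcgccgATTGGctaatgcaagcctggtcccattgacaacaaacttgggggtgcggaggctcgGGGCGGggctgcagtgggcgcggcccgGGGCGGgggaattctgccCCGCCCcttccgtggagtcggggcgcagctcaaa
Mylip: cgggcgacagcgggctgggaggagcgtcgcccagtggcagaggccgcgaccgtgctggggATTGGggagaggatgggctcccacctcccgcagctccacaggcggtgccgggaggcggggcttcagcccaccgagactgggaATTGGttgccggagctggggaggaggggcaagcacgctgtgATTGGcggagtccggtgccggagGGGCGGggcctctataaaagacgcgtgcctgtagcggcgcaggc
Hmgcs1: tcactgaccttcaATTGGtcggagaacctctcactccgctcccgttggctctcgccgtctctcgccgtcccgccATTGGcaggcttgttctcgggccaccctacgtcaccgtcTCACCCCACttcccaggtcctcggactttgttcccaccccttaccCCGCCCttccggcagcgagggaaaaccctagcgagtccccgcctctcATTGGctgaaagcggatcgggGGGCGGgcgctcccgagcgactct

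Promoter windows from the RefSeq table were used for 24 of the 29 genes, with 34 windows in all. None was used for Fdps, Fdft1 or Sqle, nor for Stard4 and Npc1, which lie on chromosome 18. Windows on that chromosome were left out for the sterol pathway genes. The letters TCACNCCAC, a form of the sterol regulatory element to which SREBP proteins bind, were in 1 of 34 windows (2.94%) and in 1.05% of all 32851 windows of that length. That window was the one of Hmgcs1, where the match began 137 bases before the start, and Hmgcs1 had nearly the same signal in both groups. The shorter core CACNCCA, which lies within the longer motif, was in 17.6% of the windows of these genes and in 15.6% of all windows. Srebf2 held that core beginning 161 bases before the start. CCAAT, the box bound by the NF-Y factor, was in 22 of 34 windows (64.7%) against 33.8% of all windows. GGGCGG, the box bound by Sp1-type factors, was in 70.6% against 32.7%, and CACGTG, the E-box letters, in 17.6% against 6.02%. The 21 genes with a CCAAT match had a median log2 difference of -0.14, and the 3 without one had -0.06. For GGGCGG the order was the opposite, with -0.13 in the 21 genes with a match and -0.29 in the 3 without one. All motifs were searched on both strands, and a match is only a match of letters.

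Among the enzymes from acetyl-CoA to farnesyl diphosphate, 4 of 6 had lower mean signals in the knockdown and none passed the test. Hmgcs1 encodes the synthase that condenses acetyl-CoA with acetoacetyl-CoA to HMG-CoA. Its signal was 8964.1 and 9201.3 in the control arrays and 8450.9 and 9657.8 in the knockdown arrays. The knockdown arrays lay on both sides of the controls, and the log2 difference was -0.01 (SE 0.12), with a 95% interval of -0.25 to 0.23. Mvk, whose product phosphorylates mevalonate, gave 471.3 and 564.2 in the controls and 573.9 and 694.3 in the knockdown. It was the highest of the 29 differences, at 0.28 (SE 0.17), with groups apart by a small margin and an adjusted p of 0.454 (limma). With the mean of its probe sets the difference was 0.16, and it ranged from 0.15 to 0.42 with each array left out. The next kinase, phosphomevalonate kinase (Pmvk), had signals of 539.7 and 685.6 in the controls against 416.9 and 545.4 in the knockdown. The groups overlapped, and the difference of -0.34 ranged from -0.53 to -0.15 with each array left out.

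Mvd encodes the decarboxylase that forms isopentenyl diphosphate. Its signal was 486.9 and 573.4 in the control arrays and 357.3 and 442.0 in the knockdown arrays, or 75.4% of control. Both knockdown arrays were below both controls, at a log2 difference of -0.40 (SE 0.18) and an adjusted p of 0.277 (limma). The difference was -0.25 without knockdown replicate 1 and -0.16 with the mean of its probe sets, the second of which gave 0.08. Idi1 encodes the isomerase of isopentenyl diphosphate, and its knockdown signals of 2790.2 and 3224.3 lay on either side of the control signals of 2871.7 and 3007.6. Fdps makes farnesyl diphosphate, from which the sterol and prenylation branches part. Control signals of Fdps were 9966.5 and 10117.6, and knockdown signals were 7293.8 and 9446.5. Knockdown replicate 1 was the low array here, replicate 2 was close to the controls, and the difference of -0.27 (SE 0.13) had an adjusted p of 0.286 (limma). Without knockdown replicate 2 it was -0.46, with an adjusted p of 0.0346, and without knockdown replicate 1 it was -0.09.

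From squalene to cholesterol, 9 of 11 enzymes had lower mean signals in the knockdown, with a median log2 difference of -0.18 and none past the test. The first enzyme, squalene synthase (Fdft1), had signals of 2125.3 and 2376.9 in the controls and 1867.2 and 2041.6 in the knockdown. Squalene epoxidase (Sqle), often named as a rate-controlling step, went from 3710.5 and 4030.6 to 3289.1 and 3537.0. Both had groups that did not overlap, at 86.8% and 88.2% of the control mean. Lanosterol synthase (Lss) overlapped fully, with 1165.1 and 1122.8 in the controls and 1191.3 and 1053.1 in the knockdown. The lanosterol demethylase Cyp51 had 1562.7 and 1530.0 in the controls and 1296.8 and 1520.9 in the knockdown, so only replicate 1 of the knockdown stood clearly lower. Sterol reductase Tm7sf2 had the same pattern, with 370.7 and 359.9 in the controls against 257.3 and 366.7. Its difference of -0.24 (SE 0.20) was 0.0054 without that first knockdown array.

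The enzymes of the sterol demethylation complex had differences of both signs, and whether they differed from each other was not tested. Msmo1, the methyl oxidase, had signals of 2882.1 and 3606.6 in the controls and 3230.8 and 4106.6 in the knockdown. Nsdhl, the decarboxylating dehydrogenase of the same complex, had 2835.0 and 2989.6 against 2308.3 and 2680.5. Hsd17b7, its ketoreductase, had 691.5 and 617.6 against 784.9 and 714.0. Of these, Nsdhl had the lower mean in the knockdown and the others had the higher, with adjusted p between 0.428 and 0.622 (limma). With the mean of its probe sets the Hsd17b7 difference was -0.19. Ebp, the sterol isomerase, overlapped, with 1836.5 and 2112.9 in the controls and 1692.3 and 2015.6 in the knockdown.

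Sc5d and Dhcr7 catalyse late steps of the pathway and gave the lowest log2 differences among these 11 enzymes. Sc5d, a sterol desaturase, had control signals of 944.4 and 957.3 and knockdown signals of 686.5 and 787.6. Both knockdown arrays were below the narrow control range, at 77.5% of its mean, with a log2 difference of -0.36 (SE 0.15) and an adjusted p of 0.230 (limma). With the mean of its probe sets the difference was -0.12. Dhcr7, the reductase that yields cholesterol, had 737.3 and 711.4 in the controls and 533.0 and 631.2 in the knockdown. Its groups were apart too, at 80.4% of control and an adjusted p of 0.358 (limma), with a difference of -0.31 that was -0.19 without knockdown replicate 1. The geranylgeranyl diphosphate synthase gene Ggps1, which feeds protein prenylation, had 337.2 and 413.6 in the controls and 394.8 and 348.2 in the knockdown, both inside the control range.

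**Figure D2:**
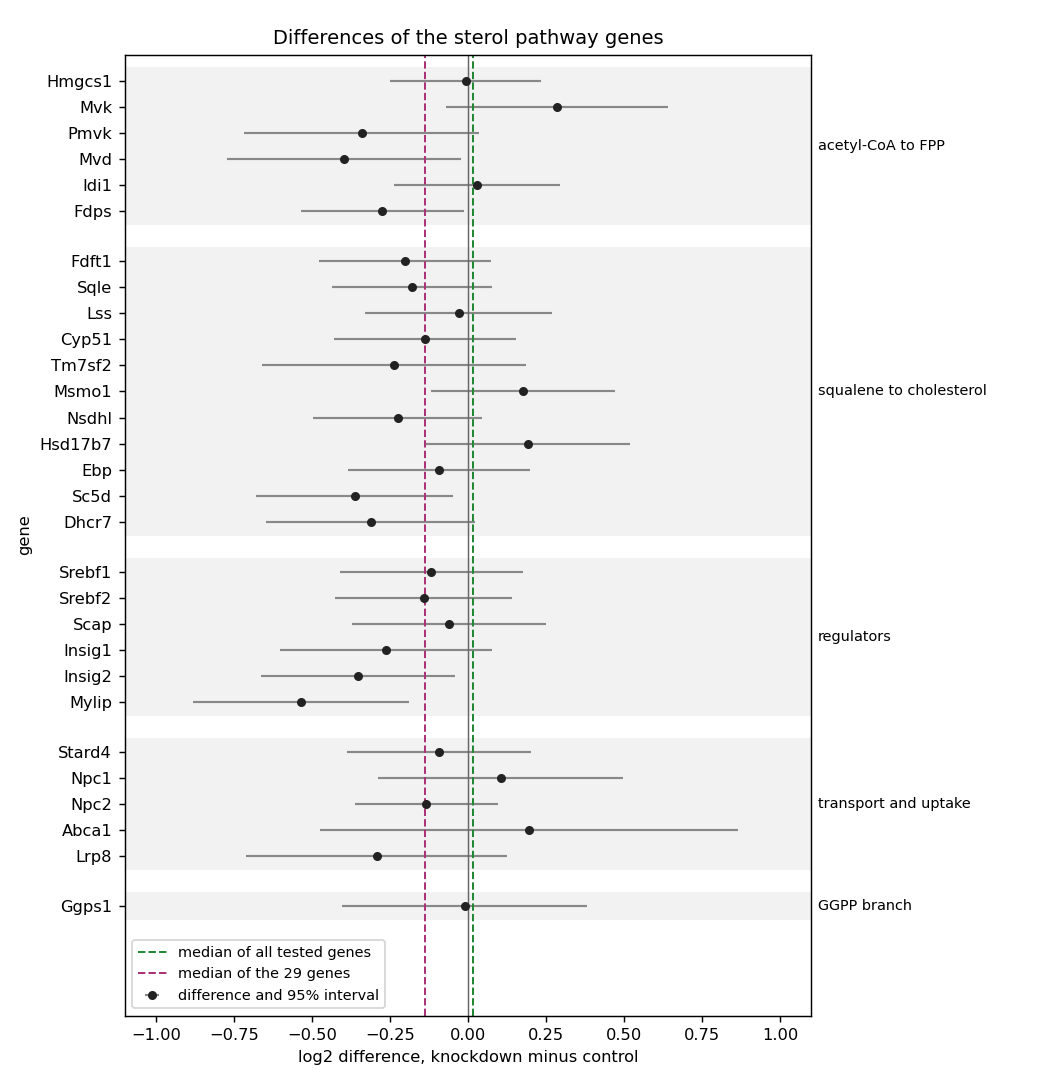
Log2 difference in signal, knockdown minus control, for each of the 29 sterol pathway genes, with its 95% interval from limma, n = 2 arrays per group. The dashed lines are the medians of the 29 genes (-0.14) and of all tested genes (0.02), and 5 intervals exclude 0.

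All 6 regulators had lower mean signals in the knockdown, with a median log2 difference of -0.20. Groups were apart in only 2 of them, beside 45.1% of all tested genes. Mylip, the ubiquitin ligase that marks lipoprotein receptors for degradation, had the smallest p-value of all 29 genes. Its signal was 735.5 and 620.1 in the controls and 446.7 and 476.0 in the knockdown, or 68.1% of the control mean. Both knockdown arrays were well below both controls, by -0.54 (SE 0.17, 95% interval -0.88 to -0.19) on the log2 scale, with an adjusted p of 0.0821 (limma). Mylip passed the test in one setting, a stricter limit on low signal that kept the upper 40% of probe sets (adjusted p 0.0305), and its adjusted p ranged from 0.0639 to 0.553 with each array left out. Insig2, which retains the SREBP complex in the endoplasmic reticulum, had 1095.8 and 1323.2 in the controls and 951.9 and 928.3 in the knockdown. The knockdown arrays nearly coincided and lay below both controls, at -0.35 (SE 0.15) and an adjusted p of 0.237 (limma). The difference was -0.22 without control replicate 2 and -0.20 with the mean of its probe sets, the others of which gave -0.20 and -0.04.

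Insig1, itself a target of SREBP in other cells, had 1632.2 and 2049.5 in the controls and 1269.7 and 1824.1 in the knockdown. Knockdown replicate 2 lay inside the control range, and without that replicate the difference of -0.26 became -0.52, with an adjusted p of 0.0375 (limma). Without knockdown replicate 1 it was -0.0039. Scap had 884.5 and 984.1 in the controls and 864.8 and 924.2 in the knockdown, and Srebf1, which encodes the SREBP-1 proteins of fatty acid synthesis, had 1393.3 and 1316.0 against 1179.2 and 1319.4. Groups overlapped for both, and their differences were -0.06 (SE 0.15) and -0.12 (SE 0.14).

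Srebf2 gave different values in its 2 probe sets. The probe set used for the gene, the brighter on average by a small margin (mean log2 value 11.32 against 11.23), had signals of 2516.1 and 2840.4 in the controls and 2185.6 and 2681.4 in the knockdown. These overlapped, at a log2 difference of -0.14 (SE 0.14) and an adjusted p of 0.688 (limma). The other had 3162.3 and 3002.0 in the controls and 1850.9 and 1842.1 in the knockdown. Both groups were tight there and far apart, and the signal fell by 0.73 on the log2 scale (SE 0.12). Its adjusted p was 0.00577 when all 20967 probe sets past the limit on low signal were tested by limma together, a fit in which 3.47% of probe sets were called and 2.08% were called lower. That call was lost without the limit on low signal (adjusted p 0.0582) and without the intensity trend (adjusted p 0.173). It held with each array left out in turn, at adjusted p of 2.49e-04 to 0.0239. A mean of both probe sets gave -0.44, with an adjusted p of 0.0786 (limma).

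The ratio of the second probe set to the used one, as a log2 value, was 0.33 and 0.08 in the control arrays and -0.24 and -0.54 in the knockdown arrays. It was lower in both knockdown arrays, by -0.59 (SE 0.19), with an unadjusted p of 0.0284 and an adjusted p of 0.406 over 5339 genes with at least 2 such probe sets (limma). In that test 0 genes (0%) had an adjusted p under 0.05, and 11.2% had an unadjusted p under 0.05. The positions of the 2 probe sets within the Srebf2 transcripts were not analysed here, and which one reports the gene's total level was not tested.

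**Figure D3:**
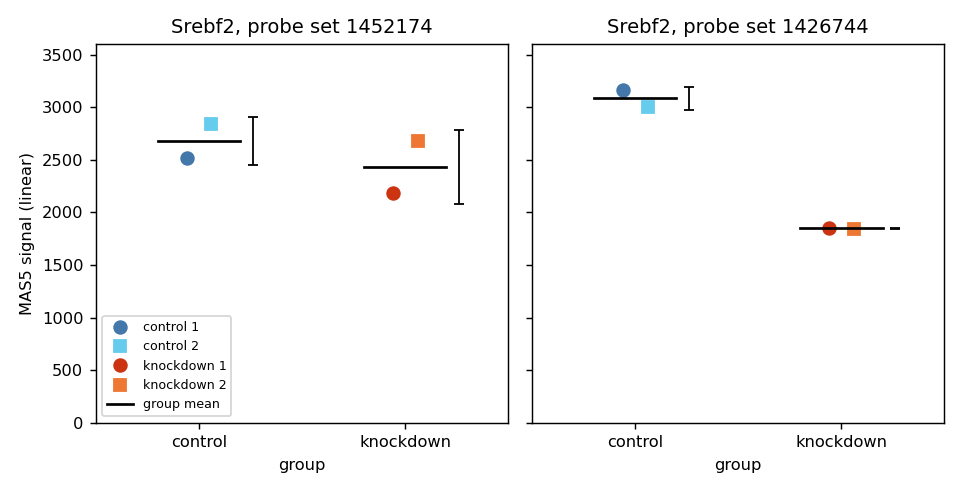
Signals of the 2 Srebf2 probe sets on each array, with controls and knockdown side by side and a line at each group mean and bars of 1 SD, n = 2. The groups overlap in the probe set used for the gene (left) and are separate in the other (right), with 3162.3 and 3002.0 in the controls and 1850.9 and 1842.1 in the knockdown.

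Probe sets also differed for other sterol pathway genes. In all, 66 probe sets were assigned to the 29 genes, 58 passed the limit on low signal, and 40 of those 58 had a negative difference, with a median of -0.10 against -0.0024 for all such probe sets. Of 15 genes with several probe sets past the limit, 8 had differences of both signs: Cyp51, Fdft1, Ggps1, Hmgcs1, Hsd17b7, Lrp8, Mvd and Sc5d. One further probe set of Hsd17b7 had 410.5 and 287.6 in the controls and 221.4 and 224.1 in the knockdown, at -0.59, opposite to the probe set used for the gene. One of Ggps1 had 215.8 and 210.9 against 332.0 and 297.6, at 0.53. Their adjusted p-values, over all probe sets, were 0.174 and 0.199 (limma). The second Srebf2 probe set was the only one of the 58 to pass the test. With each array left out, the difference of that Srebf2 probe set ranged from -0.77 to -0.70.

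**Figure D4:**
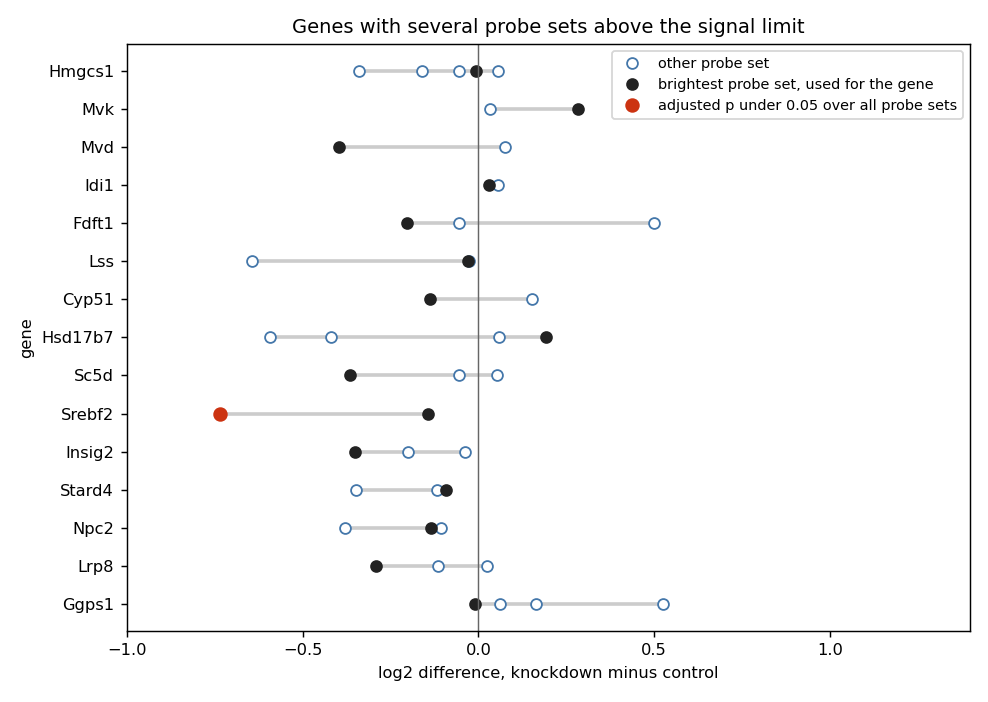
Log2 difference, knockdown minus control, of every probe set past the limit on low signal for the genes that have several, with 1 row per gene. Values lie on both sides of 0 for 8 of the 15 genes, and the Srebf2 probe set at -0.73 is the only one with an adjusted p under 0.05.

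Of the genes for cholesterol transport and uptake, 3 of 5 had lower mean signals in the knockdown. The groups were apart in 4 of 5, beside 45.1% of all tested genes. Npc2 encodes the soluble lysosomal sterol carrier. Its signal was 14859.1 and 15829.4 in the controls and 13556.8 and 14407.9 in the knockdown, a log2 difference of -0.13 (SE 0.11) with an adjusted p of 0.623 (limma). After quantile normalisation the difference was -0.23, with an adjusted p of 0.0437. Npc1, its membrane partner, had 315.8 and 364.7 against 384.6 and 348.4, with overlap. Stard4, a cytosolic sterol transfer protein, had 1164.7 and 1226.4 in the controls and 1155.7 and 1085.1 in the knockdown, where only replicate 2 stood off. Lrp8, a lipoprotein receptor that also binds reelin, had 343.2 and 309.6 against 249.8 and 277.4. Both knockdown arrays were the lower, at 80.8% of control and an adjusted p of 0.528 (limma). Abca1, the cholesterol exporter, lay close to the limit on low signal of 76.8, with 120.0 and 105.6 in the controls and 125.6 and 137.0 in the knockdown. Its difference of 0.19 (SE 0.32) had the widest interval, from -0.48 to 0.87.

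As a list, the 29 genes were lower on knockdown replicate 1 than on replicate 2. The median deviation from the control mean was -0.04 and 0.04 on the control arrays, -0.23 on knockdown replicate 1 and -0.09 on replicate 2, in log2 units. Over all tested genes the same values were -0.05, 0.05, -0.04 and 0.08. Both knockdown arrays were thus below both controls for the list median. Knockdown replicate 1 was the lower of the 2 knockdown arrays for all tested genes as well as for the list. Left out in turn, the arrays gave a list median between -0.23, without knockdown replicate 2, and -0.09, without knockdown replicate 1. Minus the all-gene median of the same setting, these were -0.19 and -0.17. With 2 arrays against 2 the smallest two-sided exact permutation p is 0.333, and the list median was not tested.

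Genes next to the pathway were taken from written lists and are given as counts. Over all tested genes, 1.81% were called higher and 2.12% lower. Among 20 tested genes of fatty acid synthesis under SREBP-1, 3 fell, 0 rose, and the median log2 difference was -0.18. Elovl6, a fatty acid elongase, had 2319.6 and 2268.8 in the controls and 887.9 and 926.3 in the knockdown, and fell by 1.32 on the log2 scale (SE 0.14, adjusted p 3.10e-06, limma). A second probe set of Elovl6 gave -1.15 and another -0.05. Lpin1, a phosphatidate phosphatase, had 275.4 and 254.4 against 117.9 and 105.7, at -1.14 (SE 0.26, adjusted p 0.0134, limma). Fads2, a fatty acid desaturase, had 2052.1 and 1869.6 against 1331.3 and 1315.5, at -0.56 (SE 0.14, adjusted p 0.0197, limma). The adjusted p of Lpin1 was 0.118 without control replicate 1 and 0.0515 without control replicate 2, and that of Fads2 was 0.242 and 0.0609. Elovl6 passed with each array left out and was lost only without the intensity trend (adjusted p 0.0507). Without the limit on low signal the adjusted p was 0.166 for Lpin1 and 0.0997 for Fads2 (limma). Without the intensity trend it was 0.0826 for Lpin1 and 0.241 for Fads2. Without probe sets named _s_at, _x_at or _a_at it was 0.124 for Lpin1 and 0.0246 for Fads2. Srebf1 itself lay within the spread of its arrays, as given above.

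In the isoprenoid branch, 1 of 16 tested genes rose, 0 fell, and the median was 0.15. The gene that rose was Nus1, a subunit of the dolichol-forming transferase, with 1440.6 and 1563.2 in the controls and 2192.5 and 2617.6 in the knockdown. Its difference was 0.67 (SE 0.14, adjusted p 0.0063, limma), and its other probe sets gave 0.11, 0.31, 0.14, 0.48 and -0.63. The last of these lay under the limit on low signal, with 72.2 and 68.4 in the controls and 19.5, in the background range, and 71.2 in the knockdown. The Nus1 difference was 0.61 (SE 0.19) without control replicate 1, and its call was lost there. Its adjusted p was 0.0926 without the limit on low signal and 0.221 without the intensity trend (limma). It was 0.238 with the mean of its probe sets and 0.281 without probe sets named _s_at, _x_at or _a_at. Among 11 further tested LXR and oxysterol genes 1 rose and 0 fell, with a median of 0.01. This was Abcg1, the exporter to high-density lipoprotein, with 91.1 and 104.3 in the controls and 295.4 and 194.0 in the knockdown. Its difference was 1.17 (SE 0.29, adjusted p 0.0233, limma), against 0.19 for Abca1, and the difference between the exporters was not tested. Abcg1 was lost without control replicate 1 (adjusted p 0.0527) and without knockdown replicate 1, where its difference was 0.89 and its adjusted p 0.223. Without the limit on low signal its adjusted p was 0.228, without the intensity trend 0.168 and after quantile normalisation 0.0519 (limma).

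The remaining lists held no called gene. Of 22 tested genes for uptake, transport and esterification of cholesterol, 19 had higher mean signals in the knockdown, with a median of 0.16. Of all tested genes, 52.5% had a positive difference. Scarb1, the receptor for high-density lipoprotein, came nearest, at 0.52 (SE 0.15, adjusted p 0.0517, limma), and its other probe sets gave 0.16 and 0.03. Scarb1 passed without knockdown replicate 1 (adjusted p 0.0482) and after quantile normalisation (adjusted p 0.0242), but its adjusted p was 0.339 without control replicate 1, and the mean of its probe sets gave 0.24 with an adjusted p of 0.549. The 14 genes of SREBP processing and sterol-linked protein decay had a median of -0.01, with the smallest p-value for Ubxn4 at -0.46 (SE 0.15, adjusted p 0.0879, limma). Its other probe sets gave 0.28 and 0.05, and the mean of its probe sets -0.04 with an adjusted p of 0.913. The first control array was the high one for Ubxn4, at 3400.7 against 2450.5, and the difference was -0.22 without it and -0.70 (adjusted p 0.0156) without control replicate 2. It also passed with the upper 40% of probe sets (adjusted p 0.0252). The 8 other sterol enzymes had a median of -0.05, with the smallest p-value for Lbr, a sterol reductase of the nuclear envelope, at -0.35 (SE 0.13, adjusted p 0.159, limma). The adjusted p of Lbr was 0.0402 after quantile normalisation. In these lists 6 of 22, 3 of 14 and 1 of 8 genes had an unadjusted p under 0.05 (limma), beside 16.02% of all tested genes. The same held for 4 of 20 fatty acid synthesis, 5 of 16 isoprenoid and 3 of 11 LXR and oxysterol genes. Of 7 fat cell markers, Adipoq, Lep and Cidec were in the background range on all arrays, 3 (Cebpa, Pparg and Retn) were above background on all 4, and 0 of the 4 tested were called. Their summed signal was 1277.6 and 1230.2 in the controls and 1047.2 and 1060.3 in the knockdown. Cebpa, a factor of fat cell differentiation, had 700.3 and 628.0 in the controls and 474.1 and 447.0 in the knockdown, with an adjusted p of 0.0928 (limma). Above background on all 4 arrays were also 4 of 6 macrophage markers (Csf1r, Adgre1, Lyz2 and Cd68), 1 of 5 endothelial markers (Kdr) and 2 of 4 osteoblast markers (Alpl and Sp7). Ptprc and Aif1, Pecam1 and Dmp1 were in the background range on all arrays. Summed signals lay between 754.9 and 897.3 for macrophage markers, 338.7 and 470 for endothelial markers and 369.7 and 502.5 for osteoblast markers, and 0 of them were called. The part of these cell types in the sterol gene values was not tested.

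**Figure D5:**
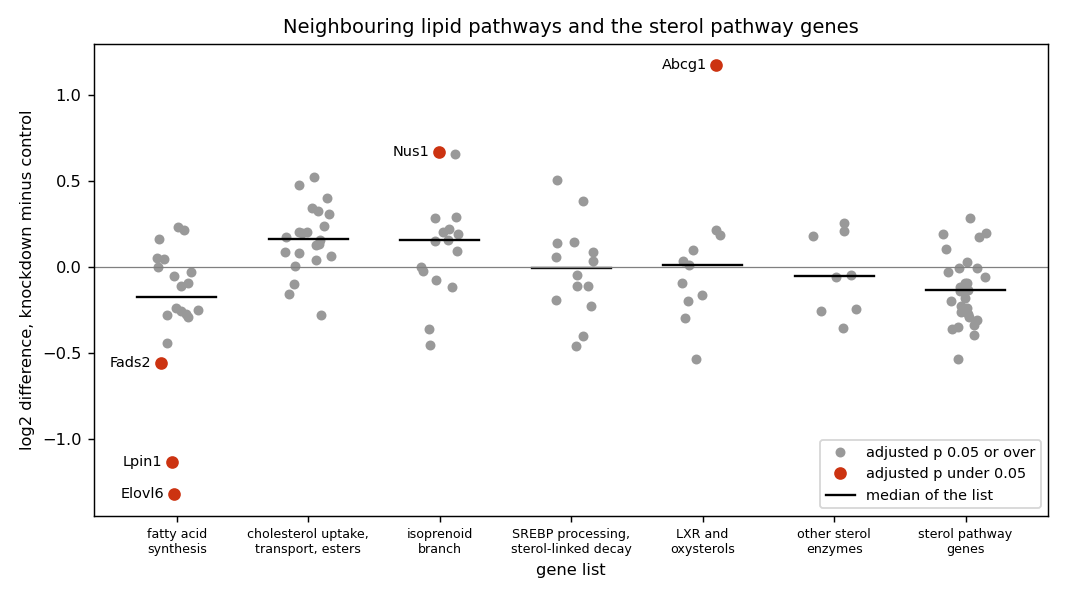
Log2 difference, knockdown minus control, of each tested gene in 6 neighbouring lists and in the 29 sterol pathway genes, with a bar at the list median. Red points have an adjusted p under 0.05: Elovl6, Lpin1 and Fads2 lower, and Nus1 and Abcg1 higher.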

How the data were processed

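RNA from 4 C2C12 cultures was hybridised as biotin-labelled cRNA to Affymetrix mouse arrays, 1 culture per array. The deposited values are MAS5 signal intensities on a linear scale, made with GCOS per the submitters' processing notes, and their further scaling was not given in the sources used. Signals were taken as deposited, converted to log2(signal + 16) and tested with limma 3.58.1 in R 4.3.3 (eBayes with trend, no block), knockdown minus control, with Benjamini-Hochberg adjustment over all tested genes at 0.05. Of 45101 probe sets, 34945 were assigned to exactly 1 gene by the platform annotation. Those in the upper 60% by mean log2 signal (signal above 76.8) were kept, and the brightest stood for each gene. Background was the 95th percentile, on each array, of 27 control probe sets for bacterial transcripts. This limit was 49.1 and 53.2 on the control arrays, 69.3 on knockdown replicate 1 and 42.9 on knockdown replicate 2. The 4 arrays limit the precision. The fits were tested on simulated data.

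Members and lists were chosen with earlier results of these data known. All listed members are named, by role. Other genes are named where called or, in a list with no call, for the smallest p-value. The Hsd17b7, Ggps1 and Srebf2 probe sets were singled out after their values were seen, as were the limit over every probe set, the fit of every probe set and the ratio of 2 probe sets. Alternatives covered the pseudocount, the signal limit, scaling, the probe set rule, the variance trend, the replicate block and each array left out. Promoters came from RefSeq (GRCm38.p6).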

Additional observations from a re-analysis of the deposited data

How the results depend on the processing

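Of the 29 sterol pathway genes, 0 were called higher in every setting run, and 0 were called lower except for 1 (Mylip) with the upper 40% of probe sets, 1 (Npc2) after quantile normalisation and 2 (Fdps and Insig1) without knockdown replicate 2. Their median log2 difference, -0.14, ranged from -0.23 to -0.088 with each array left out, and minus the all-gene median it was -0.19 to -0.14 in all settings. Over all genes, 216 were called higher and 253 lower. These counts were 23 and 32 without the signal limit and 12 and 1 without the variance trend. Higher calls numbered 373 with median centring, which moved the all-gene median to 0.058, and 131 with the mean of probe sets. With each array left out, where the lone sample of a group was assumed to vary like the others, higher calls ranged from 132 to 410 and lower calls from 121 to 445. Over all tested genes the deviations of control 1 and knockdown 1 from their group means were nearly uncorrelated (r = 0.0237). That value does not settle whether same-numbered samples were paired. With the replicate number as a block, 341 genes were called higher and 317 lower, and none of the 29 was called. Abcg1 was lost (adjusted p 0.0520) and Scarb1 (0.0290) and Lbr (0.0451) were gained (limma). At an unadjusted p under 0.05, the block gave 13 of the 29 and 2544 of all tested genes, against 5 and 1914 without it. They were 11 and 2489 after quantile normalisation, 3 and 2064 without the signal limit and 1 and 1525 without the variance trend (limma).

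Each gene whose sign changed had a 95% interval that included 0. After quantile normalisation Idi1 was -0.00081 and Ggps1 0.023. With median centring Hmgcs1 was 0.035, Lss 0.012 and Ggps1 0.032. With the mean of probe sets Fdft1 was 0.080, Cyp51 0.0078, Hsd17b7 -0.19 and Ggps1 0.19. With each array left out, Hmgcs1 ranged from -0.10 to 0.089, Idi1 from -0.074 to 0.13, Lss from -0.12 to 0.058, Tm7sf2 from -0.48 to 0.0054, Ebp from -0.22 to 0.033, Srebf2 from -0.29 to 0.0043, Scap from -0.14 to 0.015 and Ggps1 from -0.15 to 0.13. The cause of these changes was not tested.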
